A study of Rattus norvegicus with 12 samples.

Results

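The genes described here encode 5 chains of the fibril-forming collagens: Col1a1 and Col1a2 (type I), Col3a1 (type III), and Col5a1 and Col5a2 (type V). They were measured in whole lung of 12 male Wistar rats aged 12 weeks, with 1 Affymetrix RAE 230A array per animal. The 7 diabetic rats had received streptozotocin, a toxin of the insulin-producing beta cells, at 8 weeks of age and so had been diabetic for 4 weeks. The 5 normal rats had received buffer at the same age. All animals were fasted overnight before the lungs were taken. Each array is a different animal, so the errors given are between animals. Streptozotocin lowers insulin as well as raising glucose, so the model does not separate these. Every probe set that the platform annotation gives to 1 of these genes alone was used, which made 9 of the 15923 probe sets on the array. Col1a1, Col1a2, Col5a1 and Col5a2 had a brighter and a dimmer probe set each, Col3a1 had 1 probe set, and 0 probe sets named a member together with another gene.

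Fibril-forming collagens are made as long procollagen chains that wind into triple helices in the endoplasmic reticulum, lose their end peptides outside the cell and assemble side by side into cross-linked fibrils. A type I molecule usually holds a pair of alpha 1 chains and an alpha 2 chain, type III is a trimer of identical chains, and type V lies within type I fibrils and limits their diameter. In the lung, fibroblasts and related stromal cells make most of this collagen, and the fibrils give the alveolar walls, airways and vessels their tensile strength. A whole-lung array reads all cell types at once, so fewer collagen-making cells and less collagen RNA per cell cannot be told apart.

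The upstream sequences of Col1a2 and Col5a2 are shown because the brighter probe sets of these genes, on different chromosomes, ranked the diabetic lungs identically. The dimmer Col1a2 probe set did not, as it put diabetic animal 7 (1665.1) above diabetic animal 5 (1556.1). Of the 5 members, Col1a2, Col5a1 and Col5a2 matched an entry by gene ID in the RefSeq promoter table (build GRCr8). A stretch of 100 bases is printed for each of Col1a2 (chr4:33518307-33518406, plus strand, bases -250 to -151 from the annotated start) and Col5a2 (chr9:55090152-55090251, minus strand, bases -100 to -1). Capitals mark matches on either strand to the CCAAT box (CCAAT), the TATA box (TATAAA) or the GC box (GGGCGG), which do not overlap here.
Col1a2: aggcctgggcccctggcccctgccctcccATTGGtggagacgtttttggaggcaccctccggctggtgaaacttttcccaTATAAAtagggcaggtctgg
Col5a2: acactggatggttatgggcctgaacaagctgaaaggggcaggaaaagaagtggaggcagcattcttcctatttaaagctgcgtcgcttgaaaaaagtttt
Within 250 bases upstream of its start, Col1a2 held a CCAAT box on the minus strand at -221 to -217 and a TATA box at -170 to -165. The same window of Col5a2 held no exact match to these letters. That of Col5a1, which overlaps the annotated Col5a1 gene itself and is not printed, held a GC box at -127 to -122. Only exact letters were searched, so variant forms were not counted, and whether any of these boxes works was not tested. Of all 33469 upstream windows of this length, 34.0% held a CCAAT box, 12.9% a TATA box and 30.5% a GC box. In the RefSeq gene table of the same build Col3a1 and Col5a2 are direct neighbours.

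Signals of all 5 genes were lower on average in diabetic than in normal lung. The mean over the brighter probe sets was 49.5% lower for Col1a1, 45.0% for Col3a1, 44.3% for Col1a2, 32.5% for Col5a1 and 28.5% for Col5a2. Changes were tested with limma on log2 signals over the 9520 probe sets that remained after the dimmest 40% were left out, with Benjamini-Hochberg adjustment. All 9 collagen probe sets were kept. The dimmer one of Col5a1 passed the filter, a signal of 170.0, through the normal lungs (mean 203), as its diabetic mean was 168. Its place in the counts below therefore rests on the normal group. At an adjusted p under 0.05, 0 of the 9 were called, against 16 (0.168%) of all probe sets in either direction and 7 (0.0735%) that were lower. At an unadjusted p under 0.05, all 9 were lower in diabetic lung, as were 826 (8.68%) of all probe sets tested, while 738 (7.75%) were higher. At an unadjusted p under 0.01 the count was 8 of 9, against 2.73% of all probe sets, and all 9 had a log2 change below 0, against 52.8%. The median log2 change was -0.59 over the 9 collagen probe sets and -0.01 over all probe sets.

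Col1a1 encodes the alpha 1 chain of type I collagen. Its brighter probe set (1388116_at) had signals from 359 to 1297 in the diabetic lungs, with a median of 984, against 1468, 1972, 1759, 1308 and 2290.2 in the normal lungs. All diabetic animals thus lay below all normal animals, although diabetic animal 5 (1297) and normal animal 4 (1308) nearly met. The mean was 889 ± 316 (SD, n = 7) in diabetic and 1759 ± 392 (SD, n = 5) in normal lung, and the log2 change was -1.06 (SE 0.25, adjusted p = 0.0760 from limma).

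Col1a2 encodes the alpha 2 chain. The signals of its brighter probe set (1370155_at) ran from 571 to 2064 in diabetic lungs, with a median of 1523, against 1958, 2466, 2804, 2411 and 2833 in normal lungs. Here 6 of 7 diabetic animals were below every normal animal, and diabetic animal 5 overlapped normal animal 1. The mean was 1389.7 ± 505 (SD, n = 7) in diabetic and 2494 ± 355 (SD, n = 5) in normal lung, with a log2 change of -0.94 (SE 0.25, adjusted p = 0.0926 from limma).

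Col3a1 encodes the only chain of type III collagen, which forms thin fibrils in distensible tissue. Its probe set (1370959_at) had signals from 1656 to 6371 in diabetic lungs, with a median of 5295, against 9243, 8720.3, 8497, 8249 and 8985 in normal lungs. The groups were well apart: the highest diabetic value was 6371 and the lowest normal value 8249. The 5 normal animals were close to each other, with a coefficient of variation of 4.48%, whereas that of the 7 diabetic animals was 34.3%. The log2 change was -0.97 (SE 0.25, adjusted p = 0.0926 from limma).

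Col5a1 encodes the alpha 1 chain of type V collagen, which is present in nearly all type V molecules. The brighter probe set (1376099_at) had signals from 230 to 465 in diabetic lungs, with a median of 431, against 636, 603, 553, 499 and 667 in normal lungs. The groups did not overlap, and 6 of the 7 diabetic values lay between 348 and 465, with diabetic animal 5 alone at 230. The log2 change was -0.59 (SE 0.15, adjusted p = 0.0926 from limma).

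Col5a2 encodes the alpha 2 chain of type V collagen. The brighter probe set (1370895_at) had signals from 1934 to 3189 in diabetic lungs, with a median of 2481, against 3497, 3929, 3582, 3723 and 3248 in normal lungs. The groups did not overlap, but the gap between diabetic animal 5 (3189) and normal animal 5 (3248) was small. The log2 change was -0.51 (SE 0.12, adjusted p = 0.0793 from limma).

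**Figure D1:**
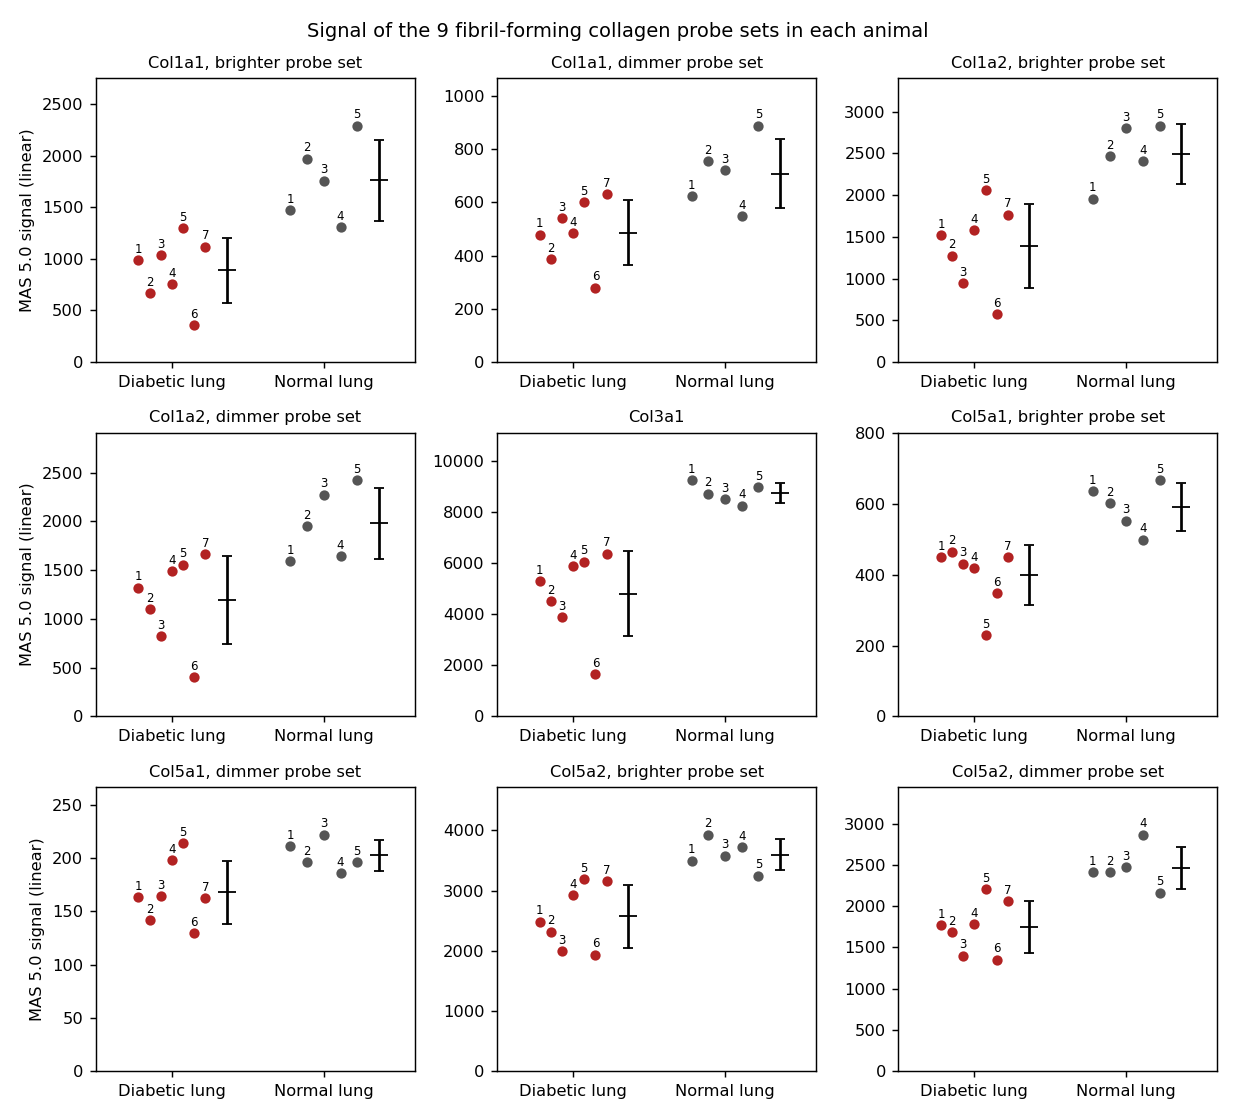
MAS 5.0 signal (linear axis from 0) of the 9 collagen probe sets in 7 diabetic (red) and 5 normal (grey) lungs, with points numbered by animal and bars showing mean and SD. The diabetic values lie below all normal values for the brighter probe sets of Col1a1, Col5a1 and Col5a2 and for Col3a1, and diabetic animal 6 is lowest for 8 of the 9 probe sets.

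Counted over probe sets, all diabetic animals lay below all normal animals for 4 of the 9, a pattern seen in 1.11% of all probe sets tested. The mean signal was at least 1.5-fold lower for 4 of the 9 as well, against 0.494% of all probe sets. These were both probe sets of Col1a2, the brighter one of Col1a1 and that of Col3a1, so the type V genes were not among them. At an adjusted p under 0.10, 6 of the 9 probe sets were lower, against 0.893% of all probe sets.

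The probe sets of a gene were compared next. For Col5a2 the brighter and dimmer probe sets gave nearly the same log2 change, -0.51 (SE 0.12) and -0.51 (SE 0.12), and ranked the 7 diabetic animals identically. For Col1a2 they gave -0.94 (SE 0.25) and -0.83 (SE 0.28), a difference of 0.10 (SE 0.08) on the log2 scale that was within the spread between animals (exact permutation test over the 792 splits of the animals, two-sided, p = 0.251, adjusted p = 0.335 over 4 genes) and was 0.05 without normal animal 4. For neither gene was a difference between the probe sets detectable. The dimmer Col5a2 probe set (1373463_at) had signals from 1351 to 2207 in diabetic lungs and from 2165 to 2868 in normal lungs, and the dimmer Col1a2 probe set (1387854_at) from 405 to 1665 in diabetic lungs and from 1593 to 2422 in normal lungs. On both, 6 of 7 diabetic animals lay below every normal animal.

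The probe sets of Col1a1 differed in the size of the change. The dimmer one (1370864_at) had signals from 280 to 631 in diabetic lungs, with a median of 484, against 624, 755, 720.3, 549 and 888 in normal lungs, and 5 of 7 diabetic animals were below every normal animal. Its log2 change was -0.57 (SE 0.18), against -1.06 (SE 0.25) for the brighter one. The change differed by 0.49 (SE 0.10), and the difference between the dimmer and the brighter probe set was greater in every diabetic than in every normal animal (exact permutation test, two-sided, p = 0.00379, adjusted p = 0.0152). The annotation gives both probe sets the same source sequence, and their values in the 7 diabetic animals varied together (r = 0.967, exact permutation p = 0.00139, adjusted p = 0.00185 over 4 genes, and rho = 0.929, exact permutation p = 0.00675, adjusted p = 0.00899). Without diabetic animals 2 and 6, r was 0.784. The size of the Col1a1 change therefore depends on the probe set read, while its direction does not.

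The probe sets of Col5a1 differed in which animals were low. The dimmer one (1369955_at) had signals from 129 to 214 in diabetic lungs, with a median of 164, against 212, 197, 222, 186 and 197 in normal lungs, close to the signal of 170.0 below which probe sets were left out. Its diabetic median was under that signal and all its normal values were above it. Diabetic animal 5 had the lowest value on the brighter probe set (230) and the highest on the dimmer one (214). Over the 7 diabetic animals no positive relation between them was detected (r = -0.48, exact permutation p = 0.288, adjusted p = 0.288 over 4 genes, and rho = -0.464, exact permutation p = 0.302, adjusted p = 0.302), and r was -0.914 without diabetic animals 5 and 6. Their log2 changes were -0.59 (SE 0.15) and -0.29 (SE 0.13), and the difference of 0.31 (SE 0.22) was within the spread between animals (exact permutation test, two-sided, p = 0.250, adjusted p = 0.335). It was 0.12 without diabetic animal 5. Among the 4 genes with a pair of probe sets, only for Col5a1 was r between them below 0.

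**Figure D2:**
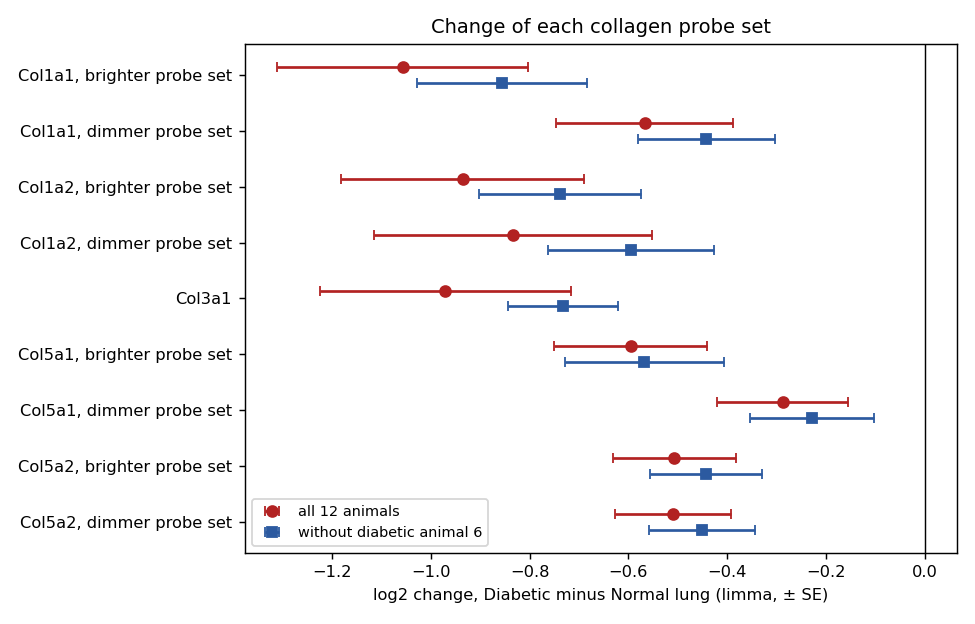
Log2 change of each collagen probe set, Diabetic minus Normal lung, from limma with its standard error, over all 12 animals (circles) and without diabetic animal 6 (squares). All values lie below 0, over all 12 animals from -1.06 for the brighter Col1a1 probe set to -0.29 for the dimmer Col5a1 probe set and without animal 6 from -0.86 to -0.23 for the same probe sets, and leaving out animal 6 narrows the error of Col3a1 most.

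Whether the chains changed by different amounts was asked within each animal, as the log2 difference between a pair of genes, for 10 pairs. Only the brighter probe set was read where a gene had a pair. The changes of the Col1a1 probe sets alone differed by 0.49, so a difference between genes can depend on the probe set read. Gene pairs on the dimmer probe sets were not tested. Among the type I and III genes no difference was detected. The change of Col1a1 minus that of Col1a2 was -0.12 (SE 0.18), that of Col1a1 minus Col3a1 was -0.09 (SE 0.19) and that of Col1a2 minus Col3a1 was 0.04 (SE 0.13), with adjusted p = 0.814 for each in the exact permutation test. The first of these ran from -0.25 without diabetic animal 3 to -0.05 without diabetic animal 4. The signs of Col1a1 minus Col3a1 and of Col1a2 minus Col3a1 changed with the animals included, so these genes have no settled order.

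On these probe sets the clearest contrast was between Col3a1 and its neighbour Col5a2, which was less low. The change of Col3a1 minus that of Col5a2 was -0.46 (SE 0.19), and the Col3a1 to Col5a2 difference was lower in all 7 diabetic animals than in any normal animal, from -1.51 to -0.19 against -0.14 to 0.19 relative to the normal mean. The exact permutation test (two-sided) gave p = 0.00631 and adjusted p = 0.0631 over the 10 pairs. Without diabetic animal 6 the difference was -0.29, with adjusted p = 0.0216 in the same test, and over all omissions of 1 animal the adjusted p ranged from 0.0216 to 0.545. Col1a2 minus Col5a2 was -0.43 (SE 0.18, exact permutation p = 0.0404, adjusted p = 0.202) and Col1a1 minus Col5a2 was -0.55 (SE 0.25, exact permutation p = 0.0657, adjusted p = 0.219), so neither passed. The pairs with Col5a1 had standard errors of 0.23 to 0.32, since diabetic animals 5 and 6 lay at opposite ends of most of them, and none passed.

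The diabetic animals differed widely from each other. Relative to the normal mean, the average log2 signal of the 5 genes was -0.63, -0.85, -0.92, -0.64, -0.55, -1.69 and -0.43 in diabetic animals 1 to 7, against -0.08, 0.07, 0.02, -0.14 and 0.14 in normal animals 1 to 5. In signal, diabetic animal 6 was thus at 31.1% of the normal level and diabetic animal 7, the highest, at 74.4%. Diabetic animal 6 was the lowest of its group for 8 of the 9 probe sets, and diabetic animals 1, 2, 3 and 6 were below every normal animal on all 9. Diabetic animal 5 was below every normal animal on only 5 of 9.

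**Figure D3:**
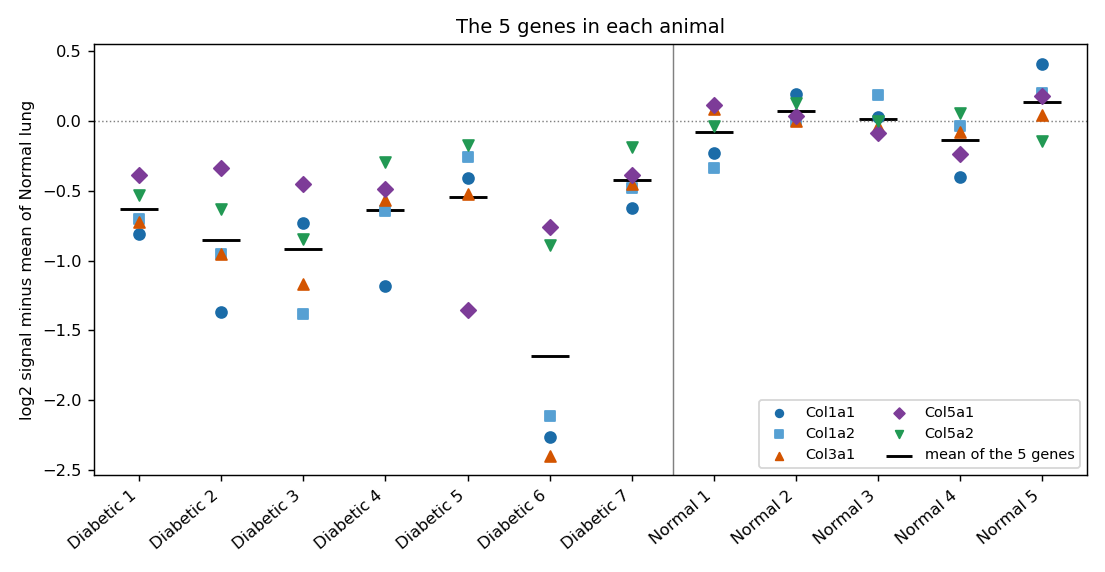
Log2 signal minus the mean of Normal lung for the brighter probe set of each of the 5 genes, in 7 diabetic (left) and 5 normal (right) animals, with a black dash for the mean of the 5 genes. The means lie from -1.69 to -0.43 in diabetic and from -0.14 to 0.14 in normal animals, and Col5a1 stands apart from the other genes in diabetic animal 5.

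Among the 7 diabetic animals, Col1a2, Col3a1 and Col5a2 varied together, read on the brighter probe set where a gene had a pair. For Col1a2 and Col3a1, Pearson's r was 0.964 (exact permutation p = 0.000794, adjusted p = 0.00265 over 10 pairs) and Spearman's rho was 0.964 (exact permutation p = 0.00278, adjusted p = 0.00926). For Col1a2 and Col5a2, r was 0.911 (exact permutation p = 0.000198, adjusted p = 0.00198) and the ranks were identical (exact permutation p = 0.000397, adjusted p = 0.00397). For Col3a1 and Col5a2, r was 0.825 (exact permutation p = 0.000397, adjusted p = 0.00198) and rho was 0.964 (exact permutation p = 0.00278, adjusted p = 0.00926). Without the 2 animals farthest from the median, diabetic animals 3 and 6, r was 0.858, 0.905 and 0.952. These values over the few remaining animals were not tested.

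The relations of Col1a1 with these genes did not pass after adjustment. Its r was 0.818 with Col1a2 and 0.855 with Col3a1 (exact permutation p = 0.0317 and 0.0359, adjusted p = 0.0718 for each), and rho was 0.750 and 0.714 (exact permutation p = 0.0663 and 0.0881, adjusted p = 0.133 and 0.147). Without diabetic animals 2 and 6, r was 0.294 and 0.0787, so these relations rest on those animals. With Col5a2, r was 0.636 (exact permutation p = 0.112, adjusted p = 0.186) and rho was 0.750 (exact permutation p = 0.0663, adjusted p = 0.133), and r was 0.181 without the same animals. Whether these correlations differ from those among Col1a2, Col3a1 and Col5a2 was not tested. The 2 genes of type I collagen ranked the diabetic lungs differently: animal 3 was the second lowest for Col1a2 (946) but the third highest for Col1a1 (1037). For Col5a1 no relation with another member was detected, with r from -0.291 to 0.0482 and adjusted p of 0.810 to 0.872 in the exact permutation test over the 4 pairs. Correlations were not computed over the 5 normal animals.

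**Figure D4:**
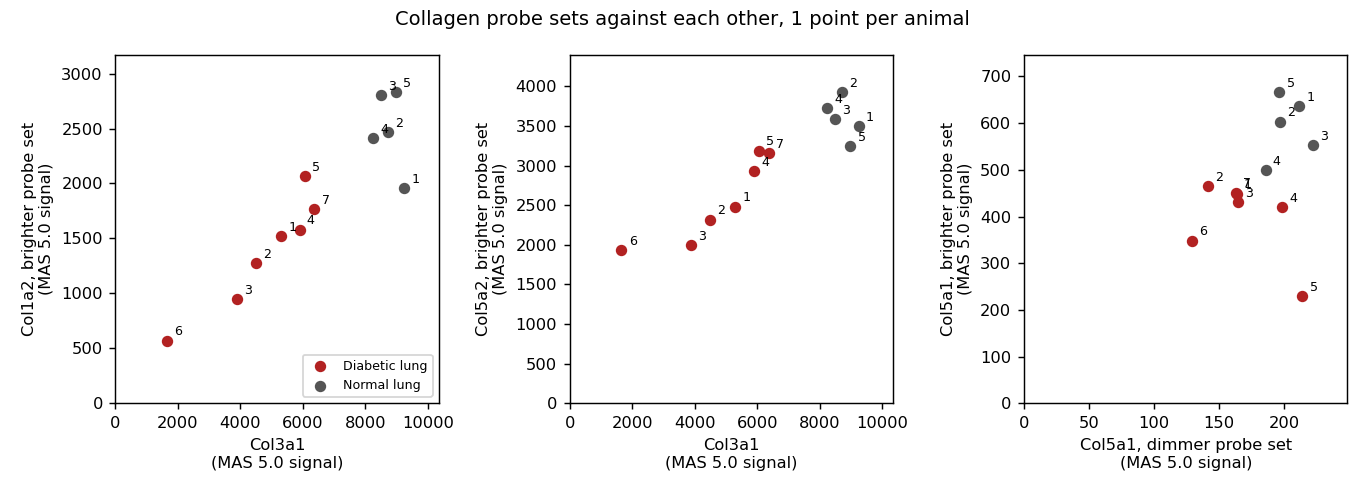
MAS 5.0 signals of Col1a2 against Col3a1, Col5a2 against Col3a1, and the brighter against the dimmer Col5a1 probe set, with 1 numbered point per animal in diabetic (red) and normal (grey) lung. Diabetic animals line up in the first pairs of genes, with r of 0.964 and 0.825 on log2 signals, while animal 5 is lowest on one Col5a1 probe set and highest on the other.

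Diabetic animal 6 also stood apart in measures of the array, and in some summed cell markers given below. Its array weight in limma, which falls as an array departs from its group over all probe sets, was 0.367, against 0.773 to 1.73 for the other diabetic and 0.667 to 1.72 for the normal animals. The 3' to 5' signal ratio of the GAPDH control probe sets, a measure of RNA integrity, was 1.15 ± 0.071 (SD, n = 7) in diabetic and 1.32 ± 0.078 (SD, n = 5) in normal lung (exact permutation test, two-sided, p = 0.00505). It was 1.30 in diabetic animal 6 and 1.10 to 1.17 in the other diabetic animals. With this ratio as a covariate the log2 changes were -2.01 for Col1a1, -1.95 for Col3a1, -1.88 for Col1a2, -0.80 for Col5a2 and -0.75 for Col5a1, and limma gave an adjusted p under 0.05 for 6 of the 9 collagen probe sets. That count was 0 with the ratio once animal 6 was left out, as was the count over all probe sets, and the log2 changes were -1.46 for Col1a1, -1.06 for Col3a1, -1.36 for Col1a2, -0.61 for Col5a2 and -0.72 for Col5a1. The collagen changes were below 0 in each of these fits, but their size was not settled by them. In normal lung the ratio was 1.234 to 1.441, above that of every diabetic animal other than 6. Without animal 6, the SE of Col1a1 was 0.17 with no covariate and 0.37 with the ratio. The ratio thus nearly follows the groups, so these fits cannot separate it from diabetes. Without animal 6 and with no covariate, Col3a1 passed in limma (log2 change -0.73, SE 0.11, adjusted p = 0.0108), and without animal 5 the dimmer Col5a2 probe set did (-0.57, adjusted p = 0.0460).

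Other genes of collagen fibrils were read on the brightest kept probe set of each. Of 33 other collagen genes, 22 were on the array and 11 were tested. At an unadjusted p under 0.05, 5 of the 11 were lower and 0 higher, against 9.11% lower and 7.48% higher among all 7036 genes tested. The 4 of smallest p were Col14a1 (log2 change -0.43), which decorates fibrils, Col15a1 (-1.004) and Col18a1 (-0.56), both of basement membrane zones, and Col6a3 (-0.50), a chain of the microfibrillar type VI collagen. In limma 0 of them passed an adjusted p of 0.05. The median of the 11 was -0.23, against -0.93 for the 5 fibril-forming genes and -0.01 for all genes.

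Among 13 tested genes of chain modification and folding, 3 were lower and 1 was higher at an unadjusted p under 0.05, with a median log2 change of -0.04. The lower genes were Serpinh1 (-0.40), the chaperone dedicated to procollagen, and the prolyl isomerase genes Ppib (-0.25) and Fkbp10 (-0.26). Plod1, a lysyl hydroxylase, was higher (0.16). Of 4 tested genes of processing and cross-linking, Loxl1, a lysyl oxidase relative, was lower at an unadjusted p under 0.05 (-0.73). Pcolce, which speeds removal of the end peptides, had -0.54, the end-peptide protease Bmp1 -0.16 and the cross-linking enzyme Lox 0.20. None of these genes passed an adjusted p of 0.05 in limma, where the smallest was 0.106, for Ppib.

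Small proteoglycans and other regulators of fibril growth were lower in part. Of 10 tested, 6 were lower and 0 higher at an unadjusted p under 0.05, with a median log2 change of -0.24 and 0 past the adjusted threshold in limma. Lum (-0.65), Prelp (-0.28), Bgn (-0.39) and Ogn (-0.77), all of leucine-rich proteoglycans, had the smallest p. The collagen receptor genes Itga1 (-0.16), Itgb1 (0.03), Ddr1 (-0.01) and Ddr2 (-0.09) had p above 0.05. Of 8 genes of collagen breakdown and its inhibitors, the gelatinase gene Mmp2 was lower (-0.46) and the inhibitor gene Timp3 higher (0.39) at an unadjusted p under 0.05, and the cathepsin gene Ctsl had 0.29 and the protease inhibitor gene Reck -0.16.

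Regulators of collagen transcription were the next list. Of 19 tested, 0 were lower and 4 higher at an unadjusted p under 0.05. Ccn2, whose secreted product acts downstream of TGF-beta, rose and was the 1 gene past the adjusted threshold in limma (log2 change 0.81, SE 0.12, adjusted p = 0.0184). The TGF-beta receptor gene Tgfbr1 (0.53), the inhibitory Smad gene Smad7 (0.34) and Sp1 (0.33), a factor that binds GC boxes, were the others. The median of the 19 was 0.05.

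**Figure D5:**
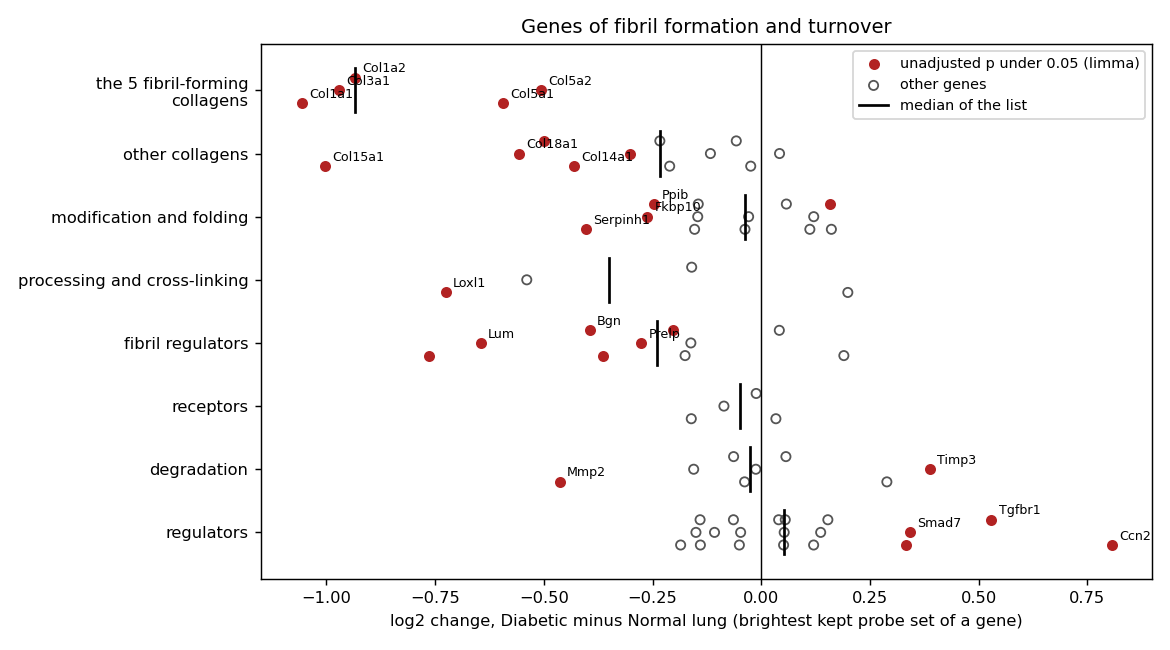
Log2 change, Diabetic minus Normal lung, of the tested genes of 8 lists, 1 point per gene, filled where the unadjusted p in limma was under 0.05, with the list median as a line. All 5 fibril-forming collagens lie between -1.06 and -0.51, and the 4 filled regulators lie above 0, with Ccn2 at 0.81.

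Markers of collagen-making cells had changes in both directions, and limma called 0 of the fibroblast and smooth muscle markers at the adjusted threshold. Of 12 fibroblast markers 11 were on the array, and 7 were tested, with Thy1, Fap, Twist2 and Prrx1 under the filter. Mfap4 (log2 change -0.86) and Mfap5 (-0.42), microfibril proteins, were lower and Pdgfra (0.58), a growth factor receptor of fibroblasts, and Vim (0.20), an intermediate filament, were higher at an unadjusted p under 0.05. The summed signal of the 11 markers was 16110 to 24900 in diabetic and 21470 to 24100 in normal lung, and diabetic animal 6 had the lowest, 16110. The groups thus overlapped on this sum, in which changes of opposite direction offset each other. Singly, Mfap4 was lower in every diabetic animal (at most 7862.7) than in any normal animal (at least 7894.0). Pdgfra was higher in every diabetic animal (at least 2721.9) than in any normal animal (at most 2452.1). The summed signal of the 5 collagens was 4868 to 12860 in diabetic and 16190 to 18020 in normal lung, without overlap. Of 8 smooth muscle markers, 7 were tested. Their summed signal overlapped, at 3916 to 6033 in diabetic and 4543 to 6252 in normal lung, Smtn (-0.33) was lower at an unadjusted p under 0.05, and Acta2 (-0.25), Des (0.09) and Cnn1 (-0.14) were not. All 5 cartilage markers on the array, Col2a1 and Acan among them, were under the filter, and so was the bone marker Bglap. Defining lung markers were bright: Sftpc, of alveolar type II cells, had a mean signal of 24350.0 in diabetic and 25680.0 in normal lung, and Scgb1a1, of airway club cells, 21550.0 in diabetic and 21760.0 in normal lung. Of 5 alveolar type I markers, 2 were lower, Aqp5 (-0.52) and Ager (-0.24), and 1 was higher, Hopx (0.23), at an unadjusted p under 0.05, with 0 past the adjusted threshold in limma. Their summed signal was 28540.0 to 35500.0 in diabetic and 31890.0 to 35660.0 in normal lung. Of the diabetic lungs, animal 6 had the highest summed signal of alveolar type II (88310), type I (35500) and airway (28370) markers. It was also highest for endothelium (10090) and mesothelium (4858) markers, while its smooth muscle sum, 5355, was within the diabetic range. The highest normal sums were 84150, 35660, 23560, 10460 and 4004 for the same 5 lists in this order. The part of a shift in cell types in the collagen changes was not tested.

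The genes whose variation was most like that of the 5 collagens were sought within groups, by Pearson's r between each gene's deviations from its group means and the average deviation of the 5 members over the 12 animals. Of 7031 genes, 24 had r above 0.9 and 148 had r above 0.8, so a high r was not particular to a few genes. The 8 highest were Col6a3 (0.973), Nt5dc2 (0.970), Serpinb9 (0.966), Loxl1 (0.961), Ppp1r14a (0.961), Bscl2 (0.959), Colec12 (0.948) and Htra1 (0.945). Col6a3 and Loxl1 are matrix genes, Htra1 a secreted protease, Colec12 a scavenger receptor, Serpinb9 a granzyme B inhibitor, Ppp1r14a a phosphatase inhibitor of smooth muscle and Bscl2 seipin, a lipid droplet protein. Without diabetic animal 6, which was the lowest of its group for all 8, r was 0.933 for Col6a3 and 0.827 to 0.895 for the other 7. Their changes with diabetes differed in size, from -0.73 for Loxl1 and -0.47 for Htra1 to -0.25 for Serpinb9 and -0.07 for Bscl2. For Bscl2 the signal was 591 ± 77.3 (SD, n = 7) in diabetic and 613 ± 10.3 (SD, n = 5) in normal lung, a log2 change of -0.07 (SE 0.10, adjusted p = 0.777 from limma).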

How the data were processed

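RNA from the lungs of 7 diabetic and 5 normal rats was measured on Affymetrix RAE 230A arrays. The authors computed 1 MAS 5.0 signal per probe set and scaled each array; the deposited values are an intensity on a linear scale. No further scaling was applied before the log2 transform, with 1 value at or below 0 set to 0.1. Control probe sets (57) were left out. Probe sets were named from the platform annotation through Entrez IDs, and 12783 named 1 gene. Groups were compared with limma 3.58.1 in R 4.3.3 (lmFit, eBayes with an intensity trend, two-sided), after the dimmest 40% by mean log2 over all animals (under a signal of 170.0) were removed, with Benjamini-Hochberg adjustment over 9520 probe sets and a threshold of 0.05. The fit was tested on simulated data. Pairs of genes or probe sets were compared by exact permutation over animals in python 3.11.15. The named genes were all members, the up to 4 genes of smallest p and those past the threshold in each list, the 8 genes of most similar variation, and the up to 4 fibroblast, smooth muscle and cartilage markers of smallest p; Sftpc, Scgb1a1, Aqp5, Ager, Hopx and Alpl were chosen after their values were seen. BAMarray, present and absent calls and RT-PCR were not used here. The number of arrays limits the precision. The members and lists were chosen with earlier results of these data known. Alternatives covered scaling, a pseudocount of 50, filters, the variance model, array weights, a replicate block, the GAPDH ratio and leaving out each animal. The fit with the GAPDH ratio and without diabetic animal 6 was added after seeing the data.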

Additional observations from a re-analysis of the deposited data

Results flagged for a closer look

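Of 18 sets of values (9 collagen probe sets in each group), 2 held an animal far from the rest of its group on the log2 scale by Dixon's test, where chance alone flags about 1 in 20 sets. The signal of Col3a1 was 1656.2 in diabetic animal 6, against 3889 to 6371 in the other 6 diabetic animals. The signal of the brighter Col5a1 probe set was 229.7 in diabetic animal 5, against 348 to 465 in the other 6.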

How the results depend on the processing

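All log2 changes of the 9 collagen probe sets stayed below 0 under every alternative in which they were tested, and the dimmer Col5a1 probe set was not tested when the dimmest 60% were left out. At an unadjusted p under 0.05 in limma, the count of lower collagen probe sets, 9, was 8 after median centring or quantile normalization. It was also 8 without a filter and with the replicate block, and 8 to 9 on leaving out an animal. With the GAPDH ratio and without diabetic animal 6 it was 6. The count of all probe sets past the adjusted threshold, 16, was 25 after quantile normalization, 7 without a filter, 32 with 60% left out, 9 without an intensity trend, 80 with array weights, 288 with the GAPDH ratio, 0 with that ratio and without diabetic animal 6, and 2 to 27 on leaving out each animal in turn. The count of collagen probe sets past it, 0, was 2 with array weights, 2 with the replicate block, 6 with the GAPDH ratio and 0 to 1 on leaving out an animal. Array weights brought the brighter Col1a1 (-0.99) and the dimmer Col5a2 probe set (-0.46) past it. The GAPDH ratio did so for both probe sets of Col1a1 (-2.01 and -1.226) and of Col1a2 (-1.88 and -2.035). It also did so for Col3a1 (-1.95) and the brighter Col5a2 probe set (-0.80). The replicate number as a block brought Col1a1 (-0.90, adjusted p = 0.0434) and Col3a1 (-0.79, adjusted p = 0.0289) past it and gave 11 calls over all probe sets. Numbers 6 and 7 occurred only in diabetic lung. Diabetic animals 6, the lowest for most collagen probe sets, and 7 thus did not inform the change in that fit. The numbers did not pair the animals, since deviations of same-numbered animals correlated at -0.123 to 0.0384 and 0 diabetic animals correlated best with their own number. For the pairs of genes, an exact permutation test of the 5 same-numbered pairs cannot go below p = 0.0625, and Col1a2 minus Col3a1 was -0.00132 in it.

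Leaving out each animal, the log2 change ranged from -1.17 to -0.86 for Col1a1, -1.05 to -0.74 for Col1a2, -1.06 to -0.73 for Col3a1, -0.65 to -0.47 for Col5a1 and -0.56 to -0.44 for Col5a2. The difference between the Col5a2 probe sets, near 0, was 0.00115 with the pseudocount, 0.0271 after quantile normalization and -0.0417 to 0.0398 on leaving out an animal. Leaving out an animal, that between the other probe sets was 0.05 to 0.14 for Col1a2, 0.12 to 0.39 for Col5a1 and 0.41 to 0.54 for Col1a1. Between genes, Col1a1 minus Col1a2 was -0.25 to -0.05, Col1a1 minus Col5a1 -0.70 to -0.29, Col1a2 minus Col5a1 -0.58 to -0.17, Col3a1 minus Col5a1 -0.58 to -0.16, Col1a1 minus Col3a1 -0.173 to 0.00569, Col1a2 minus Col3a1 -0.0694 to 0.0904 and Col5a1 minus Col5a2 -0.169 to 0.0955. Col3a1 minus Col5a2 passed the adjusted threshold without diabetic animal 2, 3, 5, 6 or 7. The cause of these changes was not tested.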

Other observations

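Markers of dividing cells (Mki67, Top2a, Ccnb1 and Cdk1) were all under the filter, and their summed signal was 317 to 505 in diabetic and 504 to 600 in normal lung. Alpl, the 1 of 3 bone markers on the array that was tested, had a signal of 425 ± 37.4 (SD, n = 7) in diabetic and 514 ± 45.4 (SD, n = 5) in normal lung, with a log2 change of -0.28 (SE 0.09, adjusted p = 0.144 from limma).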
